A study of Gallus gallus with 6 samples.

Results

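The genes described here are 8 regulators and enzymes of peripheral neuron fate, taken by name: PHOX2A, HAND2, TH and DBH of the autonomic lineage, POU4F1, NEUROG1 and NEUROG2 of the sensory lineage, and ISL1, which belongs to both. Every probe set to which the array annotation gives exactly 1 gene symbol, equal to one of these names, was taken, which gave 8 probe sets for 6 of the 8 genes among 13009 genes with such a probe set on the array. No probe set carries PHOX2A or POU4F1 as its single symbol in the annotation used here, so those 2 genes were not analysed here.

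RNA came from 6 chicken neural crest cultures of Brown Leghorn background, 3 in each of 2 groups. Neural tubes from embryos of stage 10 to 13 had been explanted on collagen with retroviral medium and removed 3 days later, to leave emigrated cells in the dish. Whether only such cells stayed was not tested, and neural tube progenitor and epithelial genes were detected, as given below. The first group (v-Myb arrays) expressed v-Myb-L3,4A-HAER, in which the leucine zipper of the viral oncoprotein v-Myb is mutated and whose activity is induced by 4-OH-tamoxifen. The second group (N118D arrays) expressed v-Myb-L3,4A-N118D-HAER, which also carries a point substitution in the DNA-binding domain. All 6 cultures carried a v-Myb protein and were exposed to 4-OH-tamoxifen at 200 nM, over 4 hours, so no culture without virus or without treatment is part of the comparison. The labels call the cultures biological replicates without saying if each had its own embryo pool. P-values therefore measure the spread between these cultures, and 3 arrays a group limit the precision of every difference.

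Neural crest cells that settle beside the aorta are exposed to BMP signals and become sympathetic neurons through a network that includes PHOX2A, HAND2 and GATA factors, and this network switches on TH and DBH, the enzymes that make noradrenaline. Crest cells that form dorsal root ganglia instead pass through NEUROG2 and NEUROG1, bHLH factors that commit precursors to a sensory neuron fate, and then express POU4F1 and ISL1. ISL1, a LIM homeodomain factor, is also made by sympathetic neurons and by spinal motor neurons, HAND2 by heart and limb mesenchyme, and both neurogenins by neural tube precursors. None of these 4 genes therefore marks a single cell type.

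Of the 8 genes, 2 were detected, HAND2 and ISL1, where detection meant a deposited log2 value of 4 or more on at least 3 of the 6 arrays. By probe set this was 3 of 8, against 43.0% of all 38439 probe sets other than controls. HAND2 was above 4 on all 6 arrays. ISL1 was above 4 on v-Myb replicate 1 and on the 3 N118D arrays, and without both arrays numbered 1 it no longer met the rule on 3 of the remaining 4 arrays, which left 1 gene detected. NEUROG1 and NEUROG2 reached 4 on 2 arrays each and were not detected. TH and DBH did not reach 4 on any array. In plain terms, 2 factors that each belong to several cell types were detected, while the noradrenergic enzymes were not. HAND2 is an early autonomic factor that heart and limb mesenchyme also make, and ISL1 is shared by several neuron types.

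**Figure D1:**
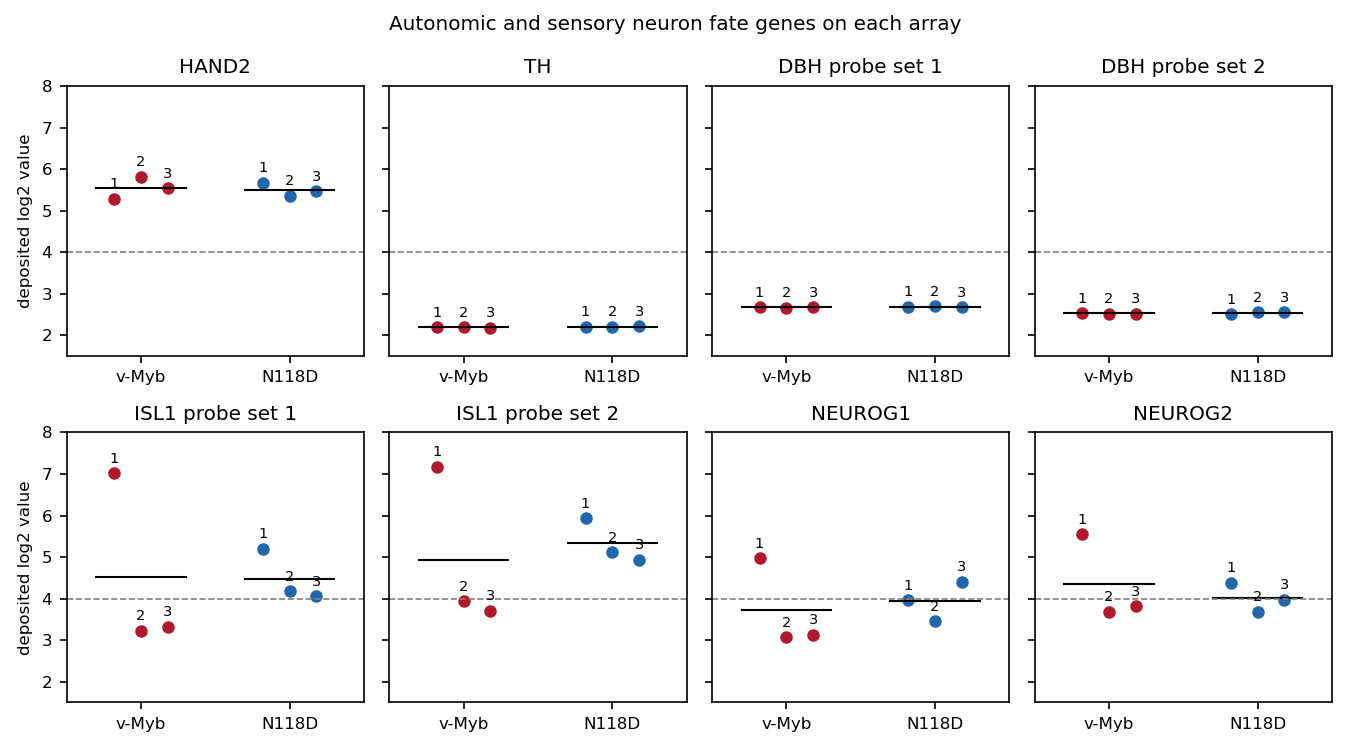
Deposited log2 values (vertical axis) of the 8 probe sets on each v-Myb array (red) and N118D array (blue), with the replicate number above each point, the group mean as a black bar and the detection minimum of 4 as a dashed line. HAND2 lies between 5.29 and 5.81 on all arrays, TH and DBH stay between 2.17 and 2.70, and ISL1, NEUROG1 and NEUROG2 are highest on v-Myb replicate 1.

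HAND2, a bHLH factor needed for noradrenergic differentiation, differed little between groups. Its log2 values were 5.29, 5.81 and 5.54 in v-Myb replicates 1, 2 and 3, and 5.67, 5.36 and 5.46 in N118D replicates 1, 2 and 3. The groups overlapped, and the lowest and the highest value were both in the v-Myb group. Group means were 5.55 ± 0.26 (SD, n = 3) for v-Myb and 5.50 ± 0.16 (SD, n = 3) for N118D. The difference, v-Myb minus N118D, was 0.05 ± 0.16 (standard error) on the log2 scale (limma, adjusted p = 0.9999). Its 95% confidence interval ran from -0.34 to 0.44, or from 0.789-fold to 1.36-fold. The HAND2 probe set has the suffix _s_at, which Affymetrix uses for probes that can match more than a single transcript. A separate probe set of its paralogue HAND1 stayed between 1.78 and 1.83.

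ISL1 varied more among arrays than almost any other tested probe set, and most of that variation lay inside the v-Myb group. On its first probe set the log2 values were 7.02, 3.22 and 3.33 in v-Myb replicates 1, 2 and 3, and 5.20, 4.18 and 4.05 in N118D replicates 1, 2 and 3. The second probe set read 7.17, 3.93 and 3.71 in the v-Myb cultures and 5.94, 5.12 and 4.94 in the N118D cultures. Both probe sets thus put v-Myb replicate 1 highest, the 3 N118D arrays in the middle in the same order, and v-Myb replicates 2 and 3 lowest. The highest array exceeded the lowest by 13.9-fold on the first probe set and by 11.0-fold on the second, and 0.635% of tested probe sets spanned at least 8-fold. The standard deviation over the 6 arrays was larger than that of 99.7% of tested probe sets for the first and of 99.6% for the second.

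With all 6 arrays, no difference in ISL1 between the groups was resolved. The first probe set averaged 4.52 ± 2.16 (SD, n = 3) for v-Myb and 4.48 ± 0.63 (SD, n = 3) for N118D, which gave a difference of 0.04 ± 1.08 (standard error). The second averaged 4.94 ± 1.94 (SD, n = 3) and 5.33 ± 0.53 (SD, n = 3), which gave -0.39 ± 0.96 (standard error). The 95% confidence intervals, from -2.61 to 2.70 and from -2.76 to 1.97, admit changes of several fold in either direction (limma, adjusted p = 0.9999 for both). In this fit 0 of 16526 probe sets, or 0%, passed an adjusted p of 0.05. An unadjusted p under 0.05 was reached by 315, or 1.91%, with none of the 3 probe sets of HAND2 and ISL1 among them. The groups overlapped for all 3, and were apart for 5.74% of tested probe sets.

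The sign of the ISL1 difference changed with single arrays. For the first probe set, leaving out N118D arrays 1, 2 and 3 in turn gave 0.41, -0.11 and -0.17, and leaving out v-Myb arrays 2 and 3 gave 0.70 and 0.64. For the second, the same N118D arrays gave -0.09, -0.50 and -0.59, and the same v-Myb arrays gave 0.11 and 0.22. For both probe sets the largest move came from v-Myb replicate 1. Without v-Myb replicate 1, the 2 remaining v-Myb arrays lay below all N118D arrays on both ISL1 probe sets, which 13.3% of tested probe sets also did in that direction. The difference on the first probe set was then -1.20 with a standard error of 0.37 and an interval of -2.15 to -0.26 (limma, unadjusted p = 0.0220, adjusted p = 0.591). On the second it was -1.51 with a standard error of 0.32 and an interval of -2.33 to -0.69 (limma, unadjusted p = 0.00506, adjusted p = 0.482). In that fit 1.27% of tested probe sets differed by -1 or less and 7.30% had an unadjusted p under 0.05, and neither ISL1 probe set passed after adjustment. Of the 5 arrays left, only the 3 N118D arrays were above 4 for ISL1, so the minimum for testing was met through the group where the gene was higher. This fit is given in detail because its array moved ISL1 most. Its intervals and p-values are therefore no independent support for a difference. Without both arrays numbered 1, the differences were -0.84 and -1.21 (limma, adjusted p = 0.563 for both), an alternative chosen after the values had been seen. Only N118D replicates 2 and 3 were then above 4 for ISL1. The minimum for testing had been set on all 6 arrays and was not met on the arrays left.

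**Figure D2:**
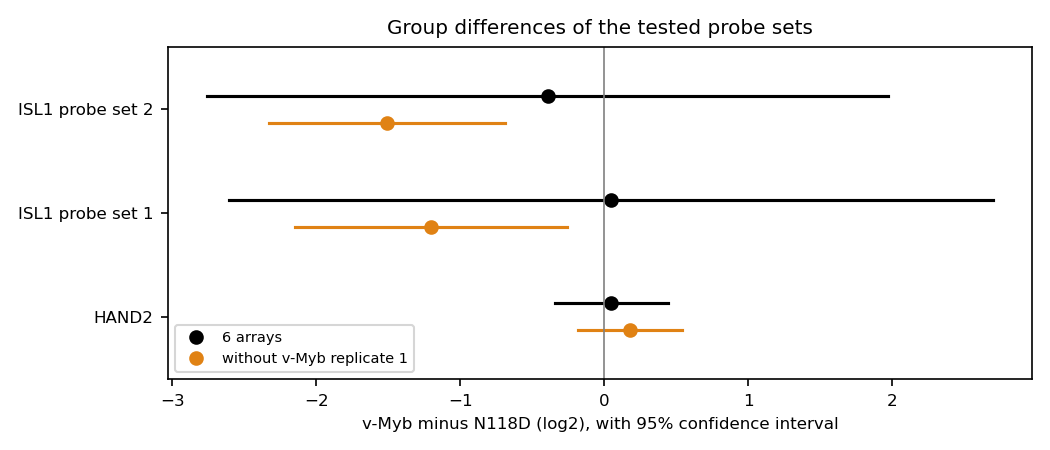
Log2 difference of v-Myb minus N118D (horizontal axis) for the 3 tested probe sets, with 95% confidence intervals from limma, for all 6 arrays (black) and without v-Myb replicate 1 (orange). For ISL1 the intervals with 6 arrays span 0 widely, while both HAND2 intervals include 0. Without v-Myb replicate 1, the array whose removal moved ISL1 most, the ISL1 intervals lie below 0. That array was singled out by these same values, so the intervals are no independent support for a difference. Neither ISL1 probe set passed after adjustment there (limma, adjusted p = 0.591 and 0.482), and only the N118D arrays were then above the detection minimum.

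NEUROG2, which in the mouse starts an early wave of sensory neurons, read 5.55, 3.68 and 3.81 in v-Myb replicates 1, 2 and 3, and 4.38, 3.69 and 3.98 in N118D replicates 1, 2 and 3. NEUROG1, which in the mouse acts in a later wave, read 4.98, 3.07 and 3.14 in the v-Myb cultures and 3.96, 3.46 and 4.41 in the N118D cultures. Both were highest on v-Myb replicate 1, by 2.25-fold over the next array for NEUROG2 and by 1.48-fold for NEUROG1, and the groups overlapped for both. Group means differed by 0.33 for NEUROG2 and by -0.22 for NEUROG1, and became -0.27 and -0.84 without v-Myb replicate 1. Neither gene met the minimum for testing, so these are values with no test. NEUROG1 also had v-Myb replicates 2 and 3 as its lowest arrays, as ISL1 did, while for NEUROG2 N118D replicate 2 lay at the level of v-Myb replicate 2.

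TH, tyrosine hydroxylase, the rate-limiting enzyme of catecholamine synthesis, read 2.20, 2.19 and 2.17 in the v-Myb cultures and 2.21, 2.20 and 2.21 in the N118D cultures. DBH, dopamine beta-hydroxylase, which turns dopamine into noradrenaline, stayed between 2.66 and 2.70 on its first probe set and between 2.50 and 2.55 on its second. These 3 probe sets moved by less than 0.05 over all 6 arrays, with standard deviations of 0.0133 for TH and 0.0116 and 0.0192 for DBH. The median standard deviation of the probe sets under the minimum was 0.0212, and it was 0.157 for those above it. Transcripts of the noradrenergic enzymes were thus not detected with these probe sets in any of the 6 cultures. Whether these probe sets respond to their transcripts was not tested. GCRMA is named by the submitters without its role. Such a method can pull dim probe sets towards a floor, so a low level of these transcripts may not be visible. Group differences of -0.019 for TH and of -0.014 and -0.0091 for DBH were not tested.

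Wider gene lists show which other genes of these neuronal programmes were detected. Over all probe sets other than controls 43.0% were detected. In the lists a gene counted through any of its probe sets, and genes had unequal numbers of them, so these shares are not directly comparable. Of 10 genes of autonomic specification 7 had a probe set and 4 were detected: TFAP2B, TFAP2A, SOX4 and SOX11, transcription factors that neural crest and early neurons share. GATA2 stayed between 1.83 and 1.88 and GATA3 between 2.95 and 3.46, both below the minimum on all arrays. Of the 4 detected genes 3 were higher in v-Myb cultures and 0 passed the test. TFAP2B differed by 0.26, TFAP2A by 0.21, SOX11 by -0.09 and SOX4 by 0.04, with a list median of 0.13 against a median of -0.0018 over all tested probe sets. That list median lay between 0.03 (without N118D replicate 3) and 0.22 (without N118D replicate 1) when 1 array was left out, and leaving out v-Myb arrays 1, 2 and 3 in turn gave 0.09, 0.05 and 0.21. The v-Myb and N118D values of TFAP2B were apart only narrowly, with a lowest v-Myb value of 11.667 and a highest N118D value of 11.664. Of all tested probe sets 5.74% did not overlap, in either direction.

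Of 12 genes for making, storing and transporting catecholamines, 9 had a probe set and 4 were detected, with 1 higher and 3 lower in v-Myb cultures, 0 past the test and a median of -0.08. Leaving out 1 array moved this median to between -0.19 (without N118D replicate 2) and 0.02 (without N118D replicate 3), and it was -0.16, -0.04 and -0.02 with v-Myb arrays 1, 2 and 3 left out in turn. The vesicular monoamine transporter gene SLC18A1 differed by -0.15, and GCH1, which makes the cofactor of tyrosine hydroxylase, by 0.04. The secretory granule genes SCG2 and CHGA differed by -0.08 each, with standard errors of 0.12 and 0.56. CHGA read 8.04, 6.45 and 6.22 in the v-Myb cultures and 6.61, 6.65 and 7.69 in the N118D cultures. It was the only detected gene of this list highest on v-Myb replicate 1, and was lowest on v-Myb replicates 2 and 3, as ISL1 was. DDC, the decarboxylase between TH and DBH in the pathway, stayed between 2.83 and 2.86, and SLC6A2, the noradrenaline transporter, between 2.61 and 2.65. GCH1, which pigment and other cells also use, read 6.50 to 7.18. DDC, SLC6A2 and the GATA genes were picked for their place in the pathway after their values had been seen.

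Of 13 genes of sensory neuron differentiation 7 had a probe set and 1 was detected, RUNX1, which blood and other cells also use, with a difference of -0.06 and 0 genes past the test. The RUNX1 difference was 0.07, -0.11 and -0.13 with v-Myb arrays 1, 2 and 3 left out in turn, and -0.15 and 0.03 with N118D arrays 1 and 3 left out. NEUROD1 and NEUROD4, bHLH genes that act after the neurogenins, stayed between 2.57 and 2.60 and between 2.18 and 2.28. POU4F2, a relative of POU4F1, stayed at 1.23 to 1.25. A probe set annotated as POU4F1L, whose RefSeq synonyms include Brn-3a, stayed between 2.31 and 2.37, and ISL2, the paralogue of ISL1, between 2.25 and 2.32. These 5 genes were likewise named after their values had been seen, and POU4F1L was not counted as POU4F1. Whether the probe sets of the undetected genes in this and the other lists respond to their transcripts was not tested.

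Of 8 neurotrophic receptor genes 7 had a probe set and 2 were detected, both lower in v-Myb cultures and 0 past the adjusted threshold, with a median of -0.28 that stayed between -0.40 (without N118D replicate 3) and -0.17 (without N118D replicate 1) with 1 array left out. GFRA1, a co-receptor for GDNF, read 9.64, 9.79 and 10.03 in v-Myb replicates 1, 2 and 3, and 10.29, 10.10 and 10.06 in N118D replicates 1, 2 and 3. Every v-Myb value lay below every N118D value, a separation that 5.74% of tested probe sets showed in either direction, and the difference was -0.33 with a standard error of 0.13 (limma, adjusted p = 0.9999). RET, its signalling partner and a gene of autonomic and enteric precursors, differed by -0.23. Of 6 cholinergic genes, all with a probe set, 2 were detected, with 1 higher, 1 lower, 0 past the test and a median of -0.15. Its sign changed with single arrays: leaving out v-Myb arrays 1, 2 and 3 in turn gave -0.98, 0.21 and 0.33, and leaving out N118D arrays 1 and 3 gave -0.34 and 0.11. SLC18A3, the vesicular acetylcholine transporter, read 7.53, 4.92 and 4.67 in the v-Myb cultures and 4.62, 5.77 and 6.60 in the N118D cultures. ACHE, acetylcholinesterase, read 9.13, 6.98 and 6.72 in the v-Myb cultures and 8.23, 7.59 and 8.03 in the N118D cultures. Both were highest on v-Myb replicate 1, as ISL1 was.

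**Figure D3:**
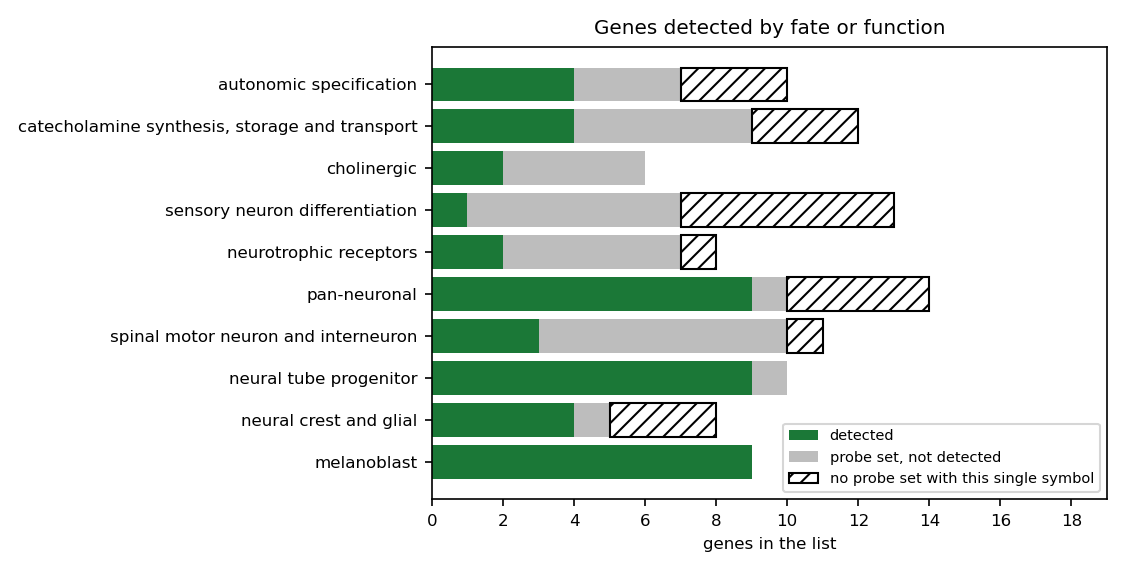
Number of genes (horizontal axis) in each list drawn that were detected (green), had a probe set but were not detected (grey) or had no probe set with that single symbol (hatched). The epithelial list and the limb and cardiac mesoderm list are not drawn. Melanoblast genes were detected in 9 of 9 cases and pan-neuronal genes in 9 of 10 with a probe set, while sensory differentiation genes were detected in 1 of 7. Over all probe sets other than controls 43.0% were detected. A gene counts through any of its probe sets, so these shares are not directly comparable.

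The departure of v-Myb replicate 1 was shared by many general neuronal and neural tube genes. Across the 8 probe sets, 4, from 3 genes, were highest on v-Myb replicate 1, and for 3 of these the lowest arrays were v-Myb replicates 2 and 3. Over all tested probe sets 19.6% were highest on v-Myb replicate 1 and 5.76% showed that whole order. Those shares cover tested probe sets only, and of the 8 only 3 were tested. Of these 3, both ISL1 probe sets showed the whole order, and HAND2 was not highest on v-Myb replicate 1. Of the 9 detected pan-neuronal genes 8 were highest on v-Myb replicate 1 and 6 showed the whole order. Of the 9 detected neural tube progenitor genes the counts were 5 and 3. They were 2 and 1 of 4 for autonomic specification and 1 and 1 of 4 for catecholamine genes. Cholinergic genes had 2 and 1 of 2, and neurotrophic receptors 1 and 0 of 2. Spinal neuron genes had 2 and 1 of 3, and limb and cardiac mesoderm genes 1 and 1 of 4. Both counts were 0 for the sensory, crest and glial, melanoblast and epithelial lists. This order was looked for after the ISL1 values had been seen. In bulk RNA, fewer cells of a type and less RNA per cell cannot be told apart.

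**Figure D4:**
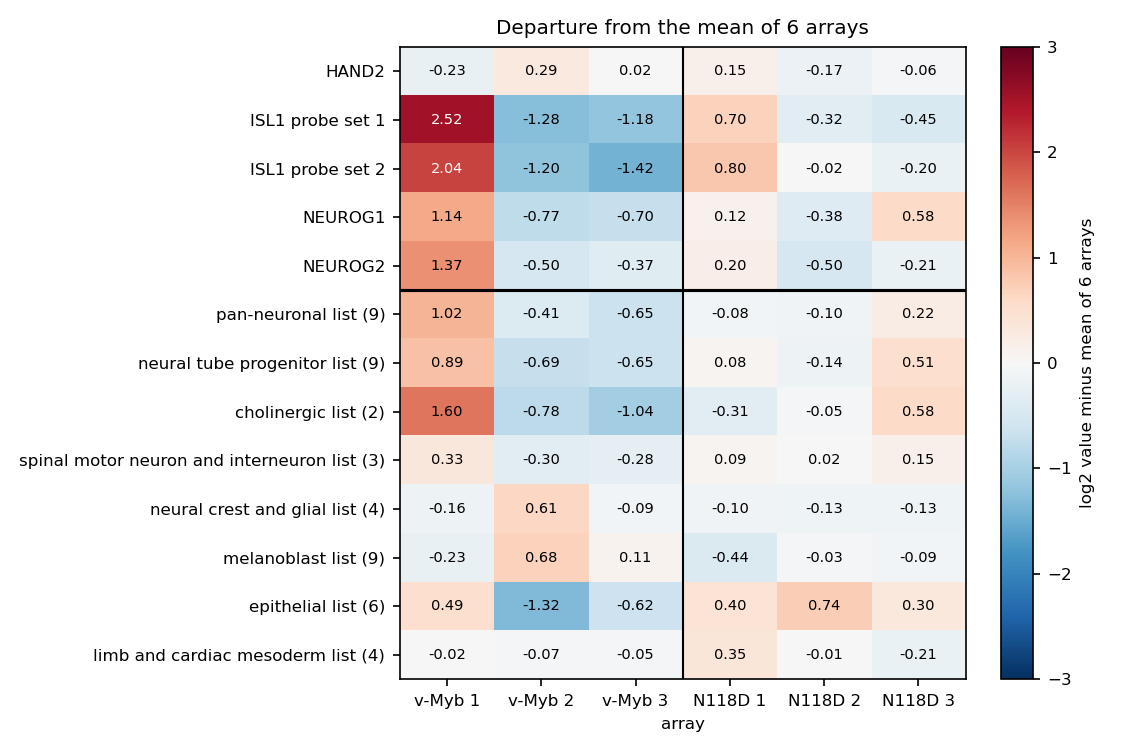
Log2 value minus the mean of the 6 arrays (colour and printed number) for HAND2, ISL1, NEUROG1 and NEUROG2 above the line. Below it stands the mean of the detected genes of each marker list drawn, with their number in brackets, and columns are arrays. The autonomic specification, catecholamine, sensory neuron differentiation and neurotrophic receptor lists are not drawn. On v-Myb replicate 1 they departed by 0.16, 0.21, -0.29 and 0.08. ISL1 departs by 2.52 and 2.04 on v-Myb replicate 1, where the pan-neuronal list departs by 1.02 and HAND2 by -0.23.

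The first ISL1 probe set departed from its mean over the 6 arrays by 2.52, -1.28 and -1.18 in the v-Myb cultures and by 0.70, -0.32 and -0.45 in the N118D cultures, each in the order of replicates 1, 2 and 3. The pan-neuronal list departed by 1.02, -0.41 and -0.65 in the v-Myb cultures and by -0.08, -0.10 and 0.22 in the N118D cultures. Both were highest on v-Myb replicate 1 and had v-Myb replicates 2 and 3 as the lowest arrays, while among the N118D arrays ISL1 was highest on replicate 1 and the list on replicate 3. The mean level of the list ranged from 8.07 to 9.75 in v-Myb and from 8.62 to 8.94 in N118D cultures, the log2 of its summed linear values ranged from 12.49 to 14.36 and from 13.02 to 13.52, and GAP43 was its member with a probe set that was not detected. TUBB3, NEFM, NEFL and SYT1 differed by 0.32, -0.33, -0.27 and 0.10, with 5 of the 9 higher, 4 lower, 0 past the test and a median of 0.05. With v-Myb arrays 1, 2 and 3 left out in turn that median was -0.47, 0.24 and 0.17, and with N118D arrays 1, 2 and 3 left out it was -0.04, -0.11 and 0.09.

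Neural tube progenitor genes had a probe set in 10 of 10 cases and 9 were detected, with 3 higher, 6 lower, 0 past the test and a median of -0.32. The median was -0.53, -0.09 and -0.08 when v-Myb arrays 1, 2 and 3 were left out in turn, and -0.15 when N118D replicate 3 was. Their mean level ranged from 8.10 to 9.68 in v-Myb and from 8.65 to 9.31 in N118D cultures, and the log2 of their sum from 13.35 to 14.67 and from 13.94 to 14.27. HES5, a Notch effector of neural precursors, read 9.69, 4.07 and 3.41 in the v-Myb cultures and 6.89, 6.28 and 8.28 in the N118D cultures. It was highest on v-Myb replicate 1 and lowest on v-Myb replicates 2 and 3, as both ISL1 probe sets were. SOX3, MSI1 and FABP7, genes of neural precursors, differed by -0.33, -0.36 and -0.32, and SOX2 was the member not detected, with 4.14 on v-Myb replicate 1 and 2.80 to 3.91 elsewhere.

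Of 11 genes of spinal motor neurons and interneurons 10 had a probe set and 3 were detected, with 2 higher, 1 lower, 0 past the test and a median of 0.04. It was -0.05, 0.08 and 0.02 when v-Myb arrays 1, 2 and 3 were left out in turn, and -0.00037 and 0.08 when N118D arrays 1 and 2 were. PAX2, an interneuron factor, differed by -0.63, FOXP1 by 0.09 and OLIG2, a motor neuron precursor factor, by 0.04. Mean levels of the 3 ranged from 6.92 to 7.56 in v-Myb and from 7.24 to 7.37 in N118D cultures, and log2 sums from 10.74 to 10.98 and from 10.76 to 10.88. Among those not detected, MNX1, a motor neuron homeobox gene, read 5.20 on v-Myb replicate 1 and 3.16 to 3.26 on the other arrays. LHX1, a LIM homeobox gene of spinal neurons, read 4.95 on v-Myb replicate 1, 3.65 on N118D replicate 1 and 2.31 to 3.25 elsewhere, and EN1, a homeobox gene of ventral interneurons, read 5.66 and 3.24 to 4.14 elsewhere. LHX9, a LIM homeobox gene of dorsal interneurons, was instead highest on N118D replicate 1, at 4.44 against 2.95 to 3.50 elsewhere. LHX3, which acts with ISL1 in motor neurons, stayed between 2.02 and 2.04, and LHX5 and ATOH1 moved as little, from 2.06 to 2.10 and from 2.26 to 2.30. These are the 7 undetected genes of the list, named after their values had been seen. Which cells carry the transcripts of these lists, and what part they have in the ISL1, NEUROG1 and NEUROG2 values, was not tested.

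Markers of crest and pigment cells were detected and were highest on another array than ISL1. Of 8 neural crest and glial genes 5 had a probe set and 4 were detected, all higher in v-Myb cultures by group mean with 0 past the test and a median of 0.28, which was -0.0039 when v-Myb replicate 2 was left out and was 0.44 when v-Myb replicate 3 was. SOX10, FOXD3, ETS1 and SNAI2, which specify the crest or its migration, differed by 0.36, 0.39, 0.19 and 0.02, and SOX9 was not detected. All 9 melanoblast genes were detected and higher in v-Myb cultures by group mean, with 0 past the test and a median of 0.38. That median was 0.11 when v-Myb replicate 2 was left out and 0.61 when v-Myb replicate 1 was. Over all tested probe sets 50.8% were lower in v-Myb cultures. PMEL, DCT, MLANA and TYR, which make the melanosome and its pigment, differed by 0.45, 0.38, 0.53 and 0.48. The groups did not overlap for PMEL, a separation that 5.74% of tested probe sets showed in either direction. Both lists were highest on v-Myb replicate 2, at 0.61 and 0.68 relative to the mean of the arrays, where ISL1 was at -1.28 and -1.20 and HAND2 at its highest, 0.29. Their part in the HAND2 values was not tested.

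Of 12 epithelial genes 8 had a probe set and 6 were detected. All 6 were lower in v-Myb cultures by group mean, against 50.8% of all tested probe sets, and 0 passed the test. Their median of -0.96 ran from -1.40 to -0.56, the values with v-Myb arrays 1 and 2 left out in turn. TP63, EPCAM, CDH1 and CLDN1, genes of epidermal identity and cell contact, differed by -0.38, -1.29, -1.10 and -0.82. The groups were narrowly apart for TP63, with a highest v-Myb value of 4.17 and a lowest N118D value of 4.20. These values lie near the detection minimum, and 5.74% of tested probe sets did not overlap, in either direction. The list was lowest on v-Myb replicates 2 and 3, at -1.32 and -0.62, which were also the lowest arrays for ISL1, and it was highest on N118D replicate 2. Its mean level ranged from 7.34 to 9.15 in v-Myb and from 8.96 to 9.40 in N118D cultures, its log2 sum from 11.86 to 13.91 and from 13.57 to 14.13, and CLDN4 and ESRP1 were not detected. Its part in the ISL1 values was not tested.

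Of 10 genes of limb and cardiac mesoderm, tissues that also make HAND2, 9 had a probe set and 4 were detected, with 1 higher, 3 lower, 0 past the test and a median of -0.10, which turned to 0.10 without N118D replicate 1 and was -0.23 without N118D replicate 3. TNNT2, a troponin, TWIST1 and PRRX1, mesenchymal factors, and GATA6 differed by -0.20, -0.11, -0.09 and 0.04. TBX5, TBX20, NKX2-5, GATA4 and GATA5, factors of heart and limb, were not detected. The mean level of the 4 ranged from 7.75 to 7.80 in v-Myb and from 7.61 to 8.17 in N118D cultures, with log2 sums from 10.11 to 10.26 and from 9.90 to 10.59. Their highest array was N118D replicate 1, while HAND2 was highest on v-Myb replicate 2, at 5.81, and next highest on N118D replicate 1, at 5.67. The part of such cells in the HAND2 values was not tested.

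The genes whose pattern over the 6 arrays was most like that of ISL1 were sought among 13443 tested probe sets of other single genes, by the root mean square difference between log2 values centred on each probe set's mean. For the first ISL1 probe set these were CBLN1, IRX1 and TBC1D30, at 0.34, 0.43 and 0.48. For the second they were CBLN1, TBC1D30 and CXCR4, at 0.31, 0.36 and 0.38, and the 2 ISL1 probe sets differed from each other by 0.28. CBLN1, which encodes a secreted synaptic organiser, read 7.53, 4.67 and 4.20 in the v-Myb cultures and 6.22, 4.83 and 5.42 in the N118D cultures. IRX1, an Iroquois homeobox gene, read 6.29, 3.15 and 3.01 in the v-Myb cultures and 4.71, 3.14 and 4.34 in the N118D cultures. CXCR4, a chemokine receptor gene of migrating cells, read 9.94, 7.66 and 7.23 in the v-Myb cultures and 8.83, 8.16 and 8.58 in the N118D cultures. All 4 of these genes were highest on v-Myb replicate 1, as is likely for genes chosen by likeness to ISL1.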

How the data were processed

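The deposited table holds 1 log2 value for each of 38535 probe sets on each of 6 arrays, made by the authors with GCRMA and Partek 6.4, per the submitters' processing notes, which give no role or order for these tools. The log2 scale was read from the values. Labelled RNA was prepared from 100 ng of total RNA per the labels' protocols. The 96 control probe sets were left out, and the 16526 with a value of 4 or more on 3 or more arrays were tested. Array medians were 3.08 to 3.12. Gene symbols are those of the platform's annotation, some of which may be outdated: 27178 probe sets had 1 symbol, 177 several and 11180 none. The two-sided test was limma 3.58.1 under R 4.3.3 (lmFit and eBayes on the group alone), and p-values were adjusted by Benjamini-Hochberg across the whole tested table, after the script was tested on simulated data. Differences are v-Myb minus N118D.

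Genes and lists were chosen with earlier results of these data known. The 12 lists hold 123 entries, 97 with a probe set, with the brightest detected probe set standing for a gene. Up to 4 tested genes a list were named by smallest p, unless said otherwise. The 3 most alike genes were sought for tested probe sets with a standard deviation of at least 0.5.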

Additional observations from a re-analysis of the deposited data

How the results depend on the processing

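The count of probe sets past an adjusted p of 0.05 in limma stayed at 0 under every setting run, with a lowest adjusted p of 0.0553, while 147 to 1206 had an unadjusted p under 0.05. The number of genes detected, 2, was 1 with log2 4 required on all 6 arrays, 4 with 4 on any array, and 1 without both arrays numbered 1. With 1 array left out at a time, differences ran from -1.20 to 0.695 and from -1.51 to 0.221 for the ISL1 probe sets, and from -0.084 to 0.177 for HAND2, so the sign of all 3 depended on single arrays. The first ISL1 probe set also changed sign with array weights (-0.37) and without both arrays numbered 1 (-0.84). Of 221 recomputed values, list medians and untested genes included, 32 changed sign, 9 of them for the tested probe sets of HAND2 and ISL1. The 221 also include counts, and differences that a setting could not change, so 32 of 221 is not a rate of sign change. With the replicate number as a block, 0 probe sets passed and 666 had an unadjusted p under 0.05. Each block holds 1 array of each group, so this setting cannot change a difference, only its p-value. The unadjusted p was then 0.803 for HAND2 and 0.947 and 0.530 for the ISL1 probe sets (limma). Same-numbered arrays deviated together in pairs 1 and 2 (correlations of 0.40 and 0.45) but not in pair 3 (-0.048), and v-Myb replicate 3 correlated best with N118D replicate 2, so the numbers were not taken as a pairing. With the minimum at 6, none of the 8 genes was tested. Background correction in the deposited values may limit what dim probe sets can show and was not varied, since no scanner file was used.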
